A study of Sus scrofa with 22 samples.

Results

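The genes described here are cytokines and cytokine receptors of pig blood mononuclear cells: interleukins with their receptors, ligands and receptors of the tumour necrosis factor (TNF) superfamily, colony-stimulating factors and interferon receptors. They were chosen by symbol, as every gene whose symbol starts with IL plus a digit, TNFRSF, TNFSF, CSF, IFNAR or IFNGR in the array's annotation, leaving out IL1A, IL7R, IL10, IL15, IL18 and TNFRSF1B. This gave 38 of the 6765 genes that carry 1 symbol on the array. They were read by 46 probe sets, of which the one with the highest mean log2 value over the 22 arrays stands for its gene. Of these 38 genes, 18 encode receptor chains and 20 encode ligands or a soluble antagonist.

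The samples were peripheral blood mononuclear cells, the lymphocytes and monocytes left after a density gradient, of mini pigs of both sexes, with 1 Affymetrix array per blood sample. After 9 months, 4 pigs had received a chow with 20% beef tallow plus a daily 8 mg of resveratrol for each kg of body weight, 4 pigs the chow with 20% tallow alone (the high-fat diet), and 4 pigs the control chow with 5% tallow, each group with 2 females and 2 males. At time 0, 5 females and 5 males labelled as control animals were sampled. Pigs 8 and 25 gave blood at both times on the control chow, so the 22 arrays come from 20 animals, and the age of the animals is not given in the labels. Wherever 4 values are listed for a diet group, both females come before both males, each in the order of the pig numbers.

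Cytokines of these families are signals by which leukocytes instruct each other. Which of them a cell answers depends largely on the receptor chains it carries. Most interleukin and interferon receptors are built from chains shared between several cytokines and signal through JAK kinases and STAT factors. Receptors for TNF ligands and for the interleukin-1 family work instead through adaptor proteins that lead to NF-kB or, for death receptors, to caspases. In blood, monocytes supply interleukin-1 beta and many TNF-family ligands, while lymphocytes carry the chains for interleukin-2, interleukin-4 and interleukin-12.

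All 18 receptor genes had a mean above log2 5, as did 11 of the 20 ligand genes. Those 29 genes were IL1B, IL16, IL17B, IL18BP, IL21 and IL34 among the interleukins, CSF2, CSF3, TNFSF4, TNFSF10 and TNFSF13 among the other ligands, and every receptor gene. The 9 genes at or below log2 5 were all interleukins. IL13 lay just under that level with a mean of 4.78, and CSF2 just over it with 5.18. A probe set was tested if it was above log2 5 in at least 2 arrays, which 31 of the 38 genes passed, IL5 and IL6 among them with 2 arrays each. The interleukins IL2, IL4, IL7, IL12A, IL12B, IL13 and IL17A were not tested. Their values ran between 2.98 and 5.63, and 1 value was above 5, that of IL4 in the control female 8 at 9 months. On an array such values cannot be told from background, so they do not show that a gene was silent.

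Some facts of the whole series bear on what follows. Over all 17240 probe sets tested, 0 passed an adjusted p of 0.05 in each of the diet comparisons, while 6026 (35.0%) passed between 9 months and time 0 on the control chow. The list of 14 monocyte markers, 11 of them measured and S100A8 alone at or below log2 5, had mean levels of 8.11 to 8.85 in resveratrol arrays, 8.06 to 8.54 in high-fat arrays, 8.65 to 8.94 in control arrays of 9 months and 8.22 to 8.83 at time 0. The 9 measured of 14 T cell markers, all above log2 5, spanned 9.79 to 10.28, 10.07 to 10.30, 9.96 to 10.14 and 10.35 to 10.71 in the same order of groups. Both measured markers of B cells, of a list of 9, spanned 8.51 to 9.95, 8.52 to 9.65, 8.69 to 9.48 and 9.15 to 9.81. In a bulk sample, fewer cells of a type and less RNA per cell cannot be told apart. Within each time the arrays were also split at the widest gap in the mean log2 level of the poly-A spike-in controls. At time 0 this gave set A (females 6 and 10, 9.12 to 9.15) and set B (the other 8 arrays, 7.58 to 7.85). Set C of 9 months holds 3 resveratrol, 1 high-fat and 3 control arrays (8.39 to 9.02). Set D of 9 months holds 1 resveratrol, 3 high-fat and 1 control array (9.93 to 10.61). What these sets are is not stated in the labels.

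High-fat against control diet. This comparison asks what the fat intake did. All differences are on the log2 scale, and a positive one means higher in the group named first. Of the 31 genes tested, 0 passed the threshold over all probe sets (background 0.00%), and the smallest adjusted p was 0.326, for TNFSF13. At an unadjusted p under 0.05, 8 genes were lower and 1 was higher on the high-fat diet, against 5.17% lower and 3.89% higher over all probe sets. The lower ones were the ligand TNFSF13, the receptor chains IL10RB, IL6R, IL13RA1, IL11RA, IFNAR1 and TNFRSF1A, and the antagonist IL18BP, and the higher one was TNFRSF17. In 4 of the 31 genes (12.9%), TNFSF13, IL10RB, IL6R and IL13RA1, each high-fat array lay below each control array, which held for 2.97% of all probe sets, and 0 genes had the groups apart in the other direction (2.08% of all probe sets). The median difference was -0.11 over the 31 genes and -0.0045 over all probe sets, and 10 of the 31 genes were above 0, against 48.8% of all probe sets. Over the alternatives run, adjusted p ranged from 0.0642 to 0.759 for TNFSF13, 0.122 to 0.759 for IL13RA1, 0.126 to 0.764 for IL10RB and 0.136 to 0.769 for IL6R. Between the 1 high-fat and 3 control arrays of spike-in set C these genes differed by -0.70, -0.60, -0.32 and -0.52, and between the 3 high-fat and 1 control array of set D by -0.71, -0.92, -0.24 and -0.20. Because the diets do not overlap in these 4 genes, the signs within a set were fixed in advance and test nothing. The monocyte marker means of the high-fat arrays also lay wholly below those of the control arrays, and the part of the cell mixture in these differences was not tested.

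Resveratrol added to the high-fat diet. No gene passed here either (0 of 31, background 0.00%). IL10RB alone had an unadjusted p under 0.05 (1 gene higher and 0 lower, against 3.21% and 3.42% of all probe sets), and 0 genes had resveratrol and high-fat arrays apart (background 3.81%, of which 1.84% higher and 1.97% lower). The median difference was 0.052 over the 31 genes and 0.016 over all probe sets, with 22 genes above 0 and 9 below, while 54.2% of all probe sets were above 0. Within the spike-in sets IL10RB differed by 0.21 in set C (3 resveratrol arrays, 1 high-fat) and 0.44 in set D (1 and 3). This comparison shares the high-fat arrays with the one before, so a gene that reads low in those arrays is pushed down there and up here by the same 4 values.

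Resveratrol with high fat against control diet. Again 0 of 31 genes passed (background 0.00%). At an unadjusted p under 0.05 there were 2 lower genes, IFNAR1 and TNFSF13, and 0 higher, against 1.90% of all probe sets lower and 1.95% higher (3.85% in both directions). IL6R was lower and TNFRSF17 higher in each resveratrol array than in each control array, where the background was 0.626% lower and 0.905% higher (1.53% together). Within set C, with 3 arrays of each diet, IFNAR1 differed by -0.28, TNFSF13 by -0.47, IL6R by -0.17 and TNFRSF17 by 0.48. For IL6R and TNFRSF17, whose groups do not overlap, these signs were fixed in advance. Of the 31 genes 11 were above 0, against 51.8% of all probe sets. The median difference was -0.047 over the 31 genes (0.027 with array weights) and 0.0056 over all probe sets. The control and resveratrol arrays are those of the other diet comparisons, so these values are not independent of them.

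**Figure D1:**
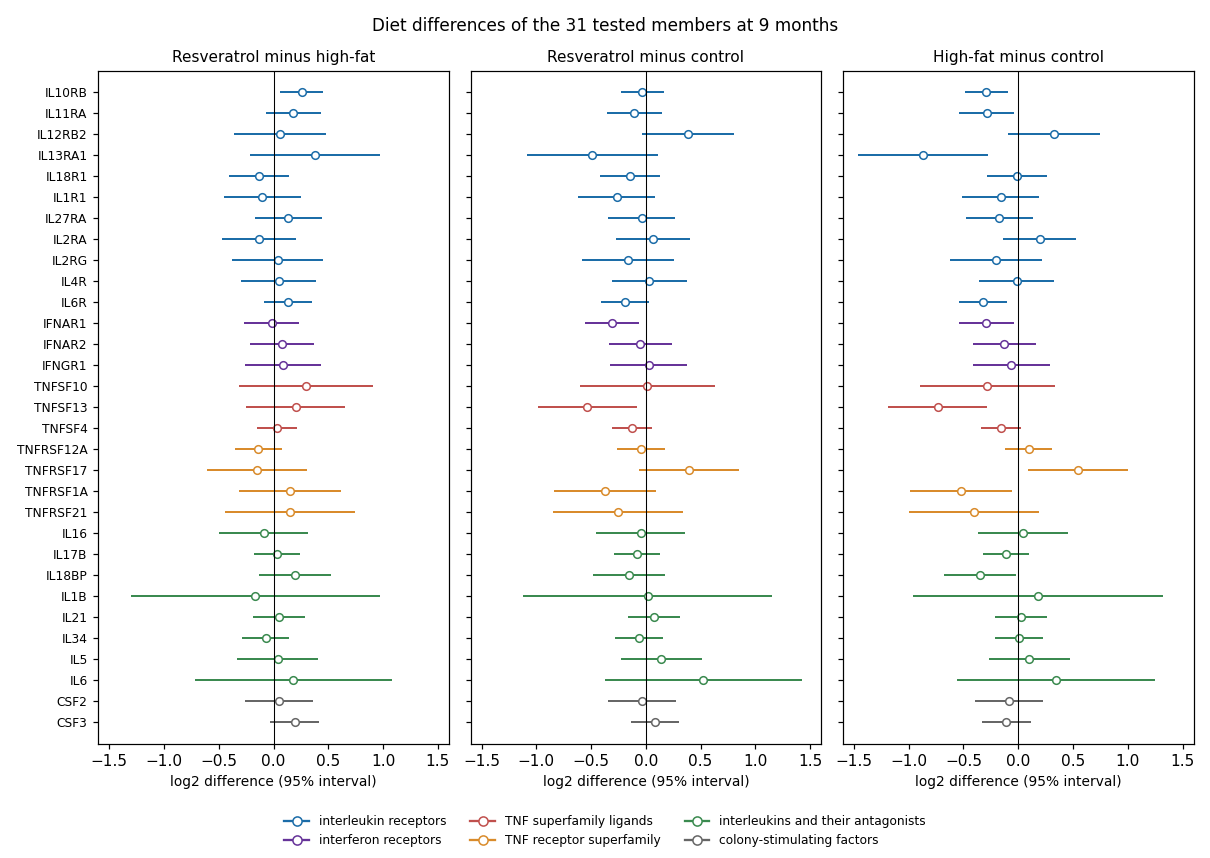
Log2 differences at 9 months (x axis) with 95% intervals from the limma fit for each of the 31 tested genes (rows, coloured by role), for resveratrol minus high-fat, resveratrol minus control and high-fat minus control. Open circles mark genes that did not pass the threshold, which holds for every point; IL13RA1 (-0.87) and TNFSF13 (-0.74) have the lowest high-fat minus control values.

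Interleukin receptors. IL13RA1, the chain that joins IL4R to make a receptor for interleukin-13 as well as interleukin-4, read 6.66, 6.84, 7.96 and 7.58 in the resveratrol arrays, 6.68, 6.40, 7.16 and 7.28 in the high-fat arrays and 7.46, 7.71, 8.13 and 7.71 in the control arrays. Each high-fat array lay below each control array, and the resveratrol males read within the control range while both resveratrol females read below it. Monocyte marker means were likewise 8.11 to 8.22 in resveratrol females and 8.83 to 8.85 in resveratrol males, and their part was not tested. The high-fat difference was -0.87 (SE 0.28, adjusted p = 0.337), with an interval of -1.45 to -0.28, and the resveratrol difference to high-fat was 0.38 (SE 0.28, adjusted p = 0.857). Its partner IL4R, the alpha chain of the interleukin-4 receptor, had 10.69, 10.76, 10.50 and 10.65 in resveratrol arrays, 10.68, 10.95, 10.39 and 10.39 in high-fat arrays and 10.52, 10.84, 10.92 and 10.20 in control arrays. These overlap throughout, and the high-fat difference of IL4R was -0.02 (SE 0.16, adjusted p = 0.991), interval -0.35 to 0.32.

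IL10RB is the second chain of the receptors for interleukin-10, interleukin-22 and the lambda interferons. Its values were 8.04, 7.60, 7.96 and 7.81 with resveratrol, 7.68, 7.56, 7.58 and 7.55 on high fat and 7.79, 7.91, 8.00 and 7.84 on the control chow. The high-fat arrays were tightly grouped below both other diets, with resveratrol female 22 as the one array that reached into their range. On the log2 scale the differences were -0.29 (SE 0.09, adjusted p = 0.326) for high-fat against control, 0.26 (SE 0.09, adjusted p = 0.728) for resveratrol against high-fat, and -0.03 (SE 0.09, adjusted p = 1.00) for resveratrol against control. IL6R, the interleukin-6 binding chain, had 5.26, 5.44, 5.31 and 5.49 in resveratrol arrays, 5.46, 5.39, 5.07 and 5.05 in high-fat arrays and 5.52, 5.51, 5.72 and 5.50 in control arrays. The control arrays lay above all 8 others, narrowly so, and high-fat males were lower than high-fat females. With a mean of 5.31 over all arrays, IL6R was the lowest of the receptor genes and lay near log2 5. Its high-fat difference was -0.32 (SE 0.10, adjusted p = 0.333) and its resveratrol difference to control -0.19 (SE 0.10, adjusted p = 1.00). The control male 16 (5.72) stood above the other 3 controls, and without it the high-fat difference was -0.26.

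IL11RA, the interleukin-11 binding chain, gave 6.95, 6.65, 6.42 and 6.51 with resveratrol, 6.64, 6.53, 6.32 and 6.31 on high fat and 6.92, 6.66, 6.91 and 6.45 on control chow, groups that overlap. Its differences were -0.29 (SE 0.12, adjusted p = 0.458) for high-fat and 0.18 (SE 0.12, adjusted p = 0.836) for resveratrol added to it. Within spike-in set D, which holds 1 control array, IL11RA was not lower on high fat (0.04, against -0.51 within set C with 1 high-fat array). The other 8 genes named for the high-fat diet at an unadjusted p under 0.05 had the sign of the whole comparison within both sets. For TNFSF13, IL10RB, IL6R and IL13RA1, whose diets do not overlap, that sign was fixed in advance. The others were chosen by p from the same arrays, with 1 array of one diet in each set, so these signs are no separate support. IL12RB2, the signalling chain of the interleukin-12 receptor of T and NK cells, read 6.96, 7.16, 7.26 and 6.79 with resveratrol, 7.09, 7.30, 6.88 and 6.66 on high fat and 6.81, 6.68, 6.63 and 6.52 on control chow. Control arrays were at the low end without being apart, with differences of 0.38 (SE 0.20, adjusted p = 1.00) for resveratrol and 0.32 (SE 0.20, adjusted p = 0.686) for high fat against control.

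IL2RA, the alpha chain that gives the interleukin-2 receptor its high affinity and marks activated and regulatory T cells, had 6.43, 5.97, 5.67 and 5.49 in resveratrol arrays, 6.29, 6.28, 5.50 and 6.01 in high-fat arrays and 5.87, 5.82, 5.87 and 5.74 in control arrays. Both treated groups were spread around the narrow control range. Its differences were 0.19 (SE 0.16, adjusted p = 0.778) for high fat and -0.13 (SE 0.16, adjusted p = 0.933) for resveratrol added. IL18R1, the binding chain for interleukin-18, gave 6.23, 6.05, 6.29 and 6.03 with resveratrol, 6.13, 6.22, 6.59 and 6.22 on high fat and 6.17, 6.46, 6.09 and 6.46 on control chow, with a resveratrol difference to high-fat of -0.13 (SE 0.13, adjusted p = 0.896). High-fat male 23 was the highest of these 12 arrays. The remaining interleukin receptor chains were IL1R1, through which interleukin-1 signals, IL27RA, which binds interleukin-27, and IL2RG, the common gamma chain of several lymphocyte receptors. Their high-fat differences were -0.16, -0.17 and -0.20. IL1R1 differed by -0.10 for resveratrol added and by -0.27 for resveratrol against control. None of the 11 interleukin receptor chains passed in a diet comparison (4 lower and 0 higher at an unadjusted p under 0.05 for high fat, against 5.17% and 3.89% of all probe sets).

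Interferon receptors. IFNAR1 and IFNAR2 together form the receptor for type I interferons, and IFNGR1 is the binding chain for interferon gamma. IFNAR1 had 9.65, 9.40, 9.76 and 9.89 in resveratrol arrays, 9.66, 9.51, 9.71 and 9.89 in high-fat arrays and 9.93, 9.80, 10.17 and 10.03 in control arrays. Resveratrol male 5 and high-fat male 26 reached above control female 18, and the other 6 arrays on 20% tallow lay below all controls. The differences to control were -0.31 (SE 0.12, adjusted p = 1.00) for resveratrol and -0.29 (SE 0.12, adjusted p = 0.442) for high fat. Its partner IFNAR2 gave 9.18, 8.89, 8.43 and 8.55 with resveratrol, 8.86, 8.55, 8.68 and 8.65 on high fat and 9.00, 8.73, 8.73 and 8.78 on control chow, groups that overlap, with differences to control of -0.05 for resveratrol and -0.13 for high fat. IFNGR1 stayed between 11.14 and 11.47 in all 12 arrays of 9 months. Its high-fat difference of -0.06 had an interval of -0.40 to 0.28, so a change of either sign within those bounds remains possible.

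TNF superfamily. TNFSF13, also called APRIL, is a ligand made by myeloid cells that keeps plasma cells alive. It had 6.51, 6.41, 7.12 and 6.96 in resveratrol arrays, 6.65, 6.45, 6.60 and 6.49 in high-fat arrays and 6.72, 7.31, 7.87 and 7.24 in control arrays. High-fat arrays lay below all controls, narrowly for control female 8 and by a wide step for the others, while the resveratrol males reached the control range. The high-fat difference was -0.74 (SE 0.21, adjusted p = 0.326) and that of resveratrol to control -0.53 (SE 0.21, adjusted p = 1.00). The second probe set of TNFSF13 gave a high-fat difference of -0.14 (adjusted p = 0.778), and correlated with the first by r = 0.185 over the 22 arrays, which share their normalization.

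TNFRSF17, the plasma cell receptor BCMA to which TNFSF13 binds, read 8.28, 8.53, 8.27 and 8.38 with resveratrol, 8.36, 8.58, 8.07 and 9.06 on high fat and 7.67, 7.96, 8.14 and 8.13 on control chow. Each resveratrol array was above each control array, and among the high-fat arrays male 23 fell into the control range while male 26 was far above it. B cell marker means, of 2 measured genes in a list of 9, overlapped between all diets. No marker list was made for plasma cells, and the part of the cell mixture was not tested. Differences to control were 0.55 (SE 0.22, adjusted p = 0.437) for high fat and 0.39 (SE 0.22, adjusted p = 1.00) for resveratrol. TNFRSF1A, the main signalling receptor for TNF, had 7.65, 8.06, 8.27 and 8.50 in resveratrol arrays, 7.53, 8.27, 8.12 and 7.96 in high-fat arrays and 7.74, 8.68, 8.99 and 8.55 in control arrays. Control female 8 read low and overlapped both other diets. Its high-fat difference was -0.53 (SE 0.22, adjusted p = 0.472), and that of resveratrol to control -0.37 (adjusted p = 1.00).

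TNFRSF21, known as death receptor 6, spread from 7.92 to 9.59 among resveratrol arrays, from 8.21 to 9.22 among high-fat arrays and from 8.60 to 9.23 among controls. In the resveratrol group both males (9.11 and 9.59) were above both females (7.92 and 8.27). The high-fat difference of TNFRSF21 was -0.40 (SE 0.28, adjusted p = 0.733). TNFRSF12A, the receptor for the ligand TWEAK, gave 7.00, 7.05, 7.01 and 6.86 with resveratrol, 7.26, 7.11, 6.98 and 7.13 on high fat and 7.00, 6.85, 7.30 and 6.94 on control chow, with a resveratrol difference to high-fat of -0.14 (SE 0.10, adjusted p = 0.855) and a high-fat difference of 0.09. Control male 16 was the highest of these 12 arrays. TNFSF10, the death ligand TRAIL, and TNFSF4, the costimulatory ligand OX40L, had high-fat differences of -0.28 and -0.16, without passing.

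**Figure D2:**
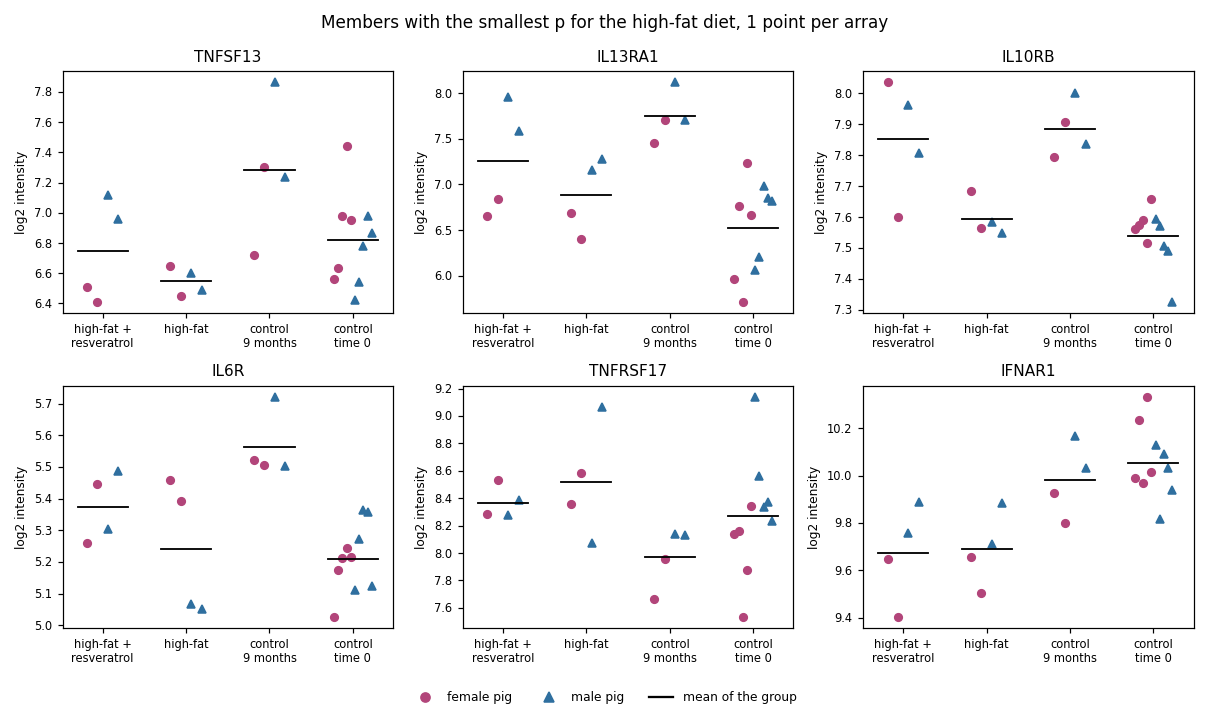
Log2 intensity (y axis) of the 6 genes TNFSF13, IL13RA1, IL10RB, IL6R, TNFRSF17 and IFNAR1, 1 point per array by condition, with females as circles, males as triangles and the group mean as a line. High-fat arrays of TNFSF13, IL13RA1, IL10RB and IL6R all sit below the 4 control arrays of 9 months; IL13RA1 averaged 6.88 ± 0.41 on high fat and 7.75 ± 0.28 on control chow (SD, n = 4 each).

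Interleukins and colony-stimulating factors. IL1B, the inflammatory cytokine of activated monocytes, ranged widely within each diet. It had 12.49, 9.63, 11.82 and 9.83 in resveratrol arrays, 11.58, 9.83, 11.84 and 11.17 in high-fat arrays and 11.44, 10.13, 10.56 and 11.56 in control arrays. Every diet held arrays above 11 and arrays below 11. The high-fat difference was 0.18 (SE 0.54, adjusted p = 0.962) with an interval of -0.95 to 1.31, and resveratrol against high-fat was -0.17 (SE 0.54, adjusted p = 0.980). The pig gene table also lists IL1B2, a gene whose synonyms include IL1B, and how the probe sets divide between the 2 genes was not tested.

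IL6, the acute-phase cytokine, was above log2 5 in 2 of the 22 arrays, resveratrol female 21 (6.83) and high-fat female 27 (5.93). Its values were 6.83, 4.17, 4.57 and 3.95 with resveratrol, 5.93, 3.98, 4.78 and 4.11 on high fat and 4.48, 4.32, 4.35 and 4.26 on control chow. The same females had the IL1B values 12.49 and 11.58, at or near the top of their diet groups. The IL6 differences were 0.52 (SE 0.43, adjusted p = 1.00) for resveratrol against control and 0.34 (SE 0.43, adjusted p = 0.869) for high fat against control, and each rests on 1 array: without resveratrol female 21 the first was -0.13, and without high-fat female 27 the second was -0.049.

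IL18BP, a secreted protein that neutralises interleukin-18, read 8.24, 8.20, 8.41 and 8.02 in resveratrol arrays, 8.19, 7.86, 8.27 and 7.76 in high-fat arrays and 8.54, 8.15, 8.29 and 8.50 in control arrays, which overlap. Its high-fat difference was -0.35 (SE 0.15, adjusted p = 0.504), and that of resveratrol to high-fat 0.19 (SE 0.15, adjusted p = 0.873). IL16, a chemoattractant for CD4 cells, differed by 0.04 for high fat, IL21, a helper T cell cytokine, by 0.02, IL17B by -0.11, and IL34, a ligand of the macrophage receptor CSF1R, by 0.01. For resveratrol added IL34 differed by -0.07, and for resveratrol against control IL21 differed by 0.07. IL5 differed by 0.10 for high fat and by 0.14 for resveratrol against control. CSF3, the granulocyte colony-stimulating factor, gave 5.90, 5.97, 5.57 and 5.56 with resveratrol, 5.80, 5.47, 5.58 and 5.39 on high fat and 5.77, 5.55, 5.70 and 5.65 on control chow. The resveratrol females were the highest of the 12, and resveratrol against high-fat was 0.19 (SE 0.10, adjusted p = 0.788). CSF2, the granulocyte and macrophage factor, differed by 0.05 in that comparison and by -0.08 for high fat.

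Control diet at 9 months against time 0. In this comparison 11 of the 31 genes rose (35.5%) and 0 fell, where over all probe sets 15.8% rose and 19.1% fell. Those that rose were the interleukin receptor chains IL13RA1, IL1R1, IL10RB, IL18R1, IL6R and IL4R, the interferon gamma receptor chain IFNGR1, the receptors TNFRSF1A and TNFRSF21, and the ligands TNFSF10 and TNFSF13. At an unadjusted p under 0.05 there were 12 higher and 1 lower, against 20.6% and 23.9% of all probe sets (44.5% together). Of the 31 genes 21 were above 0, against 49.2% of all probe sets. The median difference was 0.10 over the 31 genes and -0.0064 over all probe sets. Age, sampling time and spike-in set cannot be told apart here, because the sets were formed within each time. By spike-in level, set A of time 0 (9.12 to 9.15) lay between sets C and D of 9 months, and set B of time 0 below both. T cell marker means at 9 months (9.96 to 10.14) lay below all those of time 0 (10.35 to 10.71). Monocyte marker means were higher on average at 9 months (8.75 against 8.49) with overlapping ranges (8.65 to 8.94 against 8.22 to 8.83). Markers of NK and cytotoxic cells averaged 9.64 at 9 months against 10.13 at time 0, and those of red cells 8.91 against 10.24, also with overlap (9.34 to 10.00 against 9.83 to 10.45, and 8.13 to 9.64 against 9.26 to 10.95). The part of the cell mixture was not tested.

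For IL13RA1 the control arrays of 9 months, listed above, ran from 7.46 to 8.13, and the 10 arrays of time 0 had a lowest, median and highest value of 5.71, 6.72 and 7.24. All 4 later arrays lay above all earlier ones, and the difference was 1.22 (SE 0.24, adjusted p = 0.000500), a 2.33-fold rise. At 9 months the high-fat females (6.68 and 6.40), high-fat male 23 (7.16) and the resveratrol females (6.66 and 6.84) read within the range of time 0. High-fat male 26 (7.28) and the resveratrol males (7.96 and 7.58) read above it. IL10RB likewise separated the times, with 7.79 to 8.00 on control chow at 9 months against 7.32, 7.57 and 7.66 at time 0, and differed by 0.35 (SE 0.08, adjusted p = 0.00141). IL6R had 5.50 to 5.72 at 9 months against 5.03, 5.21 and 5.37 at time 0, also without overlap, and differed by 0.35 (SE 0.09, adjusted p = 0.00319). Its values at time 0 lay near log2 5. IL18R1, the fourth gene without overlap, had 6.09 to 6.46 at 9 months against 5.56, 5.82 and 6.06 at time 0 and differed by 0.48 (SE 0.11, adjusted p = 0.00171). These 4 are 12.9% of the genes tested, while 6.54% of all probe sets lay wholly above time 0. No gene of the 31 lay wholly below it (background 8.64%).

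IL1R1 had 6.42, 6.17, 6.83 and 6.36 on control chow at 9 months against a lowest, median and highest value of 5.30, 5.74 and 6.25 at time 0. The groups overlapped through the time 0 female 17 alone, and the difference was 0.73 (SE 0.14, adjusted p = 0.000425). IFNGR1 had 11.37, 11.36, 11.31 and 11.28 at 9 months against 10.30, 10.69 and 11.33 at time 0. Its later arrays were all near the highest of the earlier ones, which was pig 25, one of the animals sampled at both times. That pig read 11.28 at 9 months and 11.33 at time 0, while pig 8 read 11.37 and 10.58. The IFNGR1 difference was 0.60 (SE 0.14, adjusted p = 0.00205), and IFNAR1 (-0.07, adjusted p = 0.586) and IFNAR2 (-0.17, adjusted p = 0.244) did not pass. Of these 3 interferon receptor chains, 1 rose.

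IL4R had 10.52, 10.84, 10.92 and 10.20 at 9 months against 9.82, 10.13 and 10.61 at time 0 and differed by 0.47 (SE 0.13, adjusted p = 0.00998). Control female 8 and male 25 of 9 months read within the earlier range, whose top value is that of male 25 at time 0, and without control male 16 the adjusted p was 0.0684. Pig 25 thus went from 10.61 at time 0 to 10.20 at 9 months, while pig 8 went from 9.95 to 10.52. The differences of IL4R below are those of the whole groups. Its second probe set gave 0.33 (adjusted p = 0.0891). TNFRSF1A had 7.74, 8.68, 8.99 and 8.55 at 9 months against 7.41, 7.83 and 8.05 at time 0, with control female 8 alone inside the earlier range, and differed by 0.70 (SE 0.18, adjusted p = 0.00561). Pig 8 went against this rise, from 7.95 at time 0 to 7.74 at 9 months, while pig 25 went from 8.05 to 8.55. TNFRSF21 had 8.60, 9.23, 9.13 and 8.95 at 9 months against 7.61, 8.06 and 9.06 at time 0 and differed by 0.77 (SE 0.23, adjusted p = 0.0148). Female 17 and male 24 of time 0 reached the later range. Without control female 18 of 9 months its adjusted p was 0.0796.

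TNFSF10 had 5.39, 6.55, 5.79 and 6.25 at 9 months against 4.47, 5.16 and 6.12 at time 0, with control female 8 and male 16 inside the earlier range, and differed by 0.79 (SE 0.24, adjusted p = 0.0150). Of the pigs sampled at both times, pig 8 went against this rise, from 6.12 at time 0 to 5.39 at 9 months. Pig 25 went from 5.27 to 6.25. Its adjusted p was 0.0943 without control female 18 and 0.0521 without control male 25. TNFSF13 had 6.72, 7.31, 7.87 and 7.24 at 9 months against 6.42, 6.82 and 7.44 at time 0 and differed by 0.47 (SE 0.18, adjusted p = 0.0473). Its difference was 0.098 in females and 0.83 in males, and the call is at the threshold: it was lost when any of the arrays of control pigs 16, 18 or 25 of 9 months, or of time 0 pigs 6, 8, 11, 12, 15, 24 or 25, was left out (adjusted p up to 0.266), and with the pig number as a replicate block (adjusted p = 0.0540). The second probe set of TNFSF13 did not pass.

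**Figure D3:**
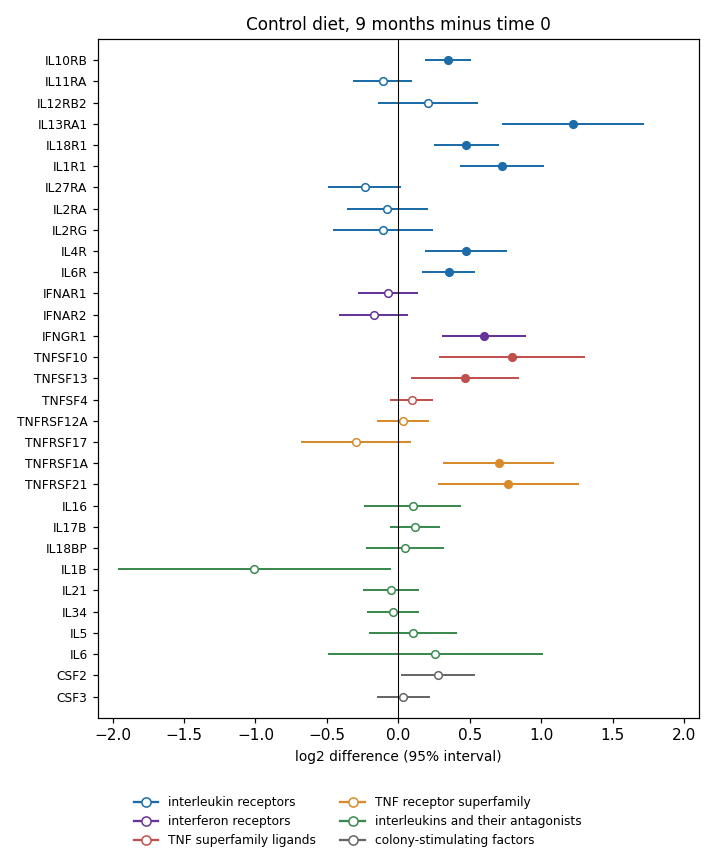
Log2 differences between 9 months and time 0 on the control chow (x axis) with 95% intervals for the 31 tested genes (rows, coloured by role). Filled circles passed the threshold; all 11 of them lie above 0, and IL1B has the lowest value (-1.01), an open circle.

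Among the genes without a call, IL1B had 11.44, 10.13, 10.56 and 11.56 at 9 months against 10.94, 12.20 and 12.92 at time 0, overlapping values with a difference of -1.01 (SE 0.45, adjusted p = 0.0910). IL27RA had 9.46, 9.66, 9.33 and 9.67 at 9 months against 9.51, 9.74 and 9.97 at time 0 and differed by -0.24 (SE 0.12, adjusted p = 0.131). These overlap as well. TNFRSF17 had 7.67, 7.96, 8.14 and 8.13 at 9 months against 7.53, 8.29 and 9.14 at time 0 and differed by -0.30 (SE 0.18, adjusted p = 0.213). IL11RA differed by -0.11 (adjusted p = 0.397). By role, 6 of 11 interleukin receptor chains, 2 of 4 TNF receptors, 2 of 3 TNF ligands and 1 of 3 interferon receptor chains rose, while 0 of 8 interleukins and 0 of 2 colony-stimulating factors did, where 15.8% of all probe sets rose. Among these interleukins IL5 (mean 4.62) and IL6 (4.39) lay under log2 5, and IL1B (11.42) and IL16 (10.27) far above it. CSF2 (5.18) and CSF3 (5.65) lay near it. The contrast of roles was not tested.

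**Figure D4:**
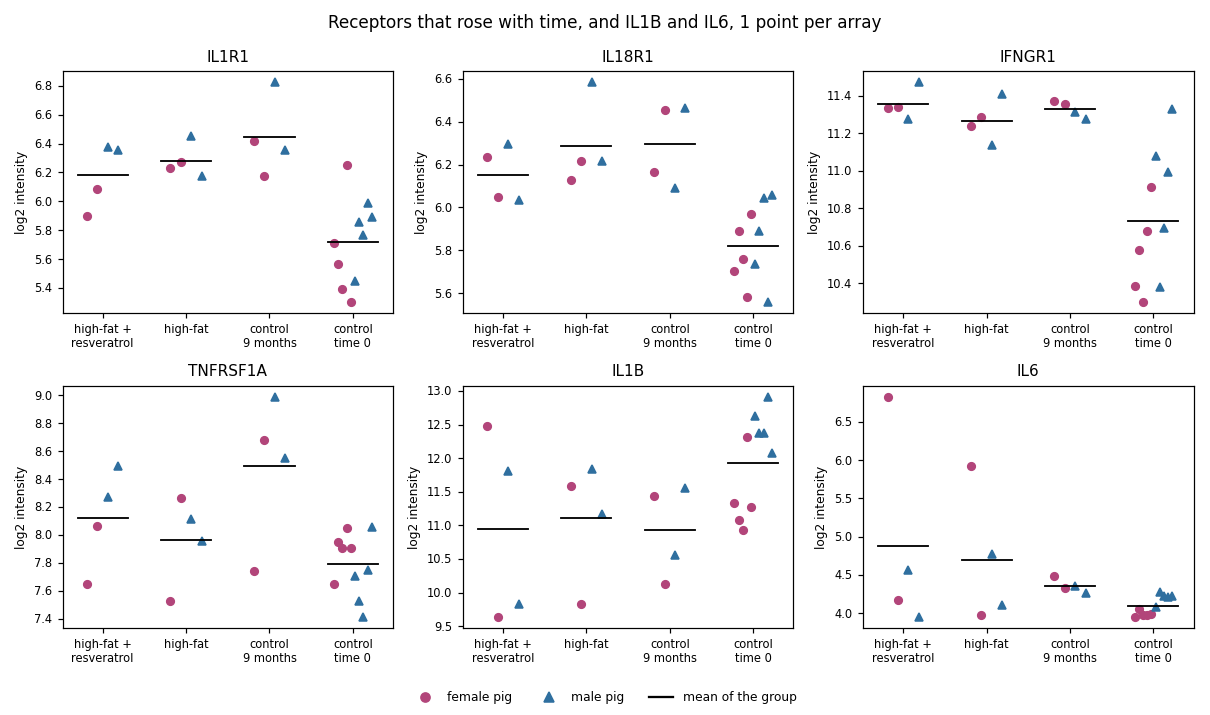
Log2 intensity (y axis) of the receptors IL1R1, IL18R1, IFNGR1 and TNFRSF1A and of the cytokines IL1B and IL6, 1 point per array by condition, with females as circles, males as triangles and the group mean as a line. IL1R1, IL18R1 and IFNGR1 sit higher in each control array of 9 months than in most arrays of time 0, as does TNFRSF1A apart from control female 8 (7.74); IL1B spreads widely in every group, and IL6 is above 5 in 2 female arrays only.

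Females against males at time 0. This comparison, stated in the study's design, gave 0 of 31 genes past the threshold (background 1.07%). At an unadjusted p under 0.05, 5 genes were lower in females and 0 higher, against 7.35% and 9.08% of all probe sets. Of the 31 genes 12 were above 0, against 51.9% of all probe sets. Both arrays of spike-in set A are of females, and without them 0 genes passed as well. IL5, the eosinophil growth factor, had 4.18, 4.22, 4.62, 4.12 and 4.43 in females and 4.75, 5.14, 4.57, 4.43 and 4.72 in males, and differed by -0.41 (SE 0.12, adjusted p = 0.0949). Of these 10 values 1 was above log2 5. TNFRSF17 had 8.14, 8.16, 7.53, 7.88 and 8.35 in females and 9.14, 8.56, 8.33, 8.37 and 8.24 in males. Female 20 overlapped the lowest males, and the difference was -0.52 (SE 0.19, adjusted p = 0.185).

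IL18BP had 8.28, 8.04, 8.13, 8.42 and 7.90 in females and 8.40, 8.38, 8.25, 8.74 and 8.70 in males, with male pigs 24 and 25 above all females, and differed by -0.34 (SE 0.14, adjusted p = 0.218). IL1B had 11.33, 11.08, 10.94, 12.32 and 11.27 in females and 12.63, 12.37, 12.38, 12.92 and 12.07 in males. Female 17 alone reached the male range, and the difference was -1.09 (SE 0.49, adjusted p = 0.279). IFNGR1 had 10.38, 10.58, 10.30, 10.68 and 10.91 in females and 11.08, 10.38, 10.70, 10.99 and 11.33 in males, overlapping values, and differed by -0.33 (SE 0.14, adjusted p = 0.271) (-0.17 without both set A arrays). IFNAR2 differed by -0.16 (adjusted p = 0.395).

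On the positive side IL2RA had 5.97, 5.94, 6.03, 5.75 and 6.30 in females and 6.01, 5.97, 5.49, 5.97 and 5.60 in males, and differed by 0.19 (SE 0.13, adjusted p = 0.497). IFNAR1 had 9.99, 10.24, 9.97, 10.33 and 10.02 in females and 10.13, 9.82, 10.09, 10.03 and 9.94 in males, and differed by 0.11 (SE 0.09, adjusted p = 0.588). TNFSF13 had 6.56, 6.64, 6.98, 7.44 and 6.95 in females and 6.42, 6.54, 6.78, 6.98 and 6.87 in males, and differed by 0.20 (SE 0.17, adjusted p = 0.594). In these 3 genes the sexes overlapped, as they did for TNFRSF1A (0.20), IL21 (0.11) and IL10RB (0.08). IL6 lay lower in each female than in each male (1 of 31 genes apart in that direction, 3.23%, against 1.51% of all probe sets, and 0 in the other, against 1.74%, or 3.25% together), yet its values of 3.95 to 4.05 in females and 4.08 to 4.28 in males are under the level at which a probe set was tested.

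Signalling genes downstream. Of 28 genes listed for JAK-STAT signalling, 17 were measured and tested. None of them passed in a diet comparison, with TYK2 (-0.31, adjusted p = 0.379), a kinase of interferon receptors, smallest in p for high fat, PTPN6 (0.48, adjusted p = 0.814), a phosphatase that damps cytokine receptors, for resveratrol added, and PTPN2 (-0.16, adjusted p = 1.00) for resveratrol against control. From time 0 to 9 months on control chow 2 of the 17 rose, STAT5B (1.17) and SOCS6 (0.57), and 4 fell, the kinases JAK1 (-0.27) and JAK3 (-0.45) and the factors STAT3 (-0.34) and STAT5A (-0.35). These 6 called genes are 35.3% of the list, near the 35.0% of all probe sets (15.8% higher and 19.1% lower). JAK3 is the kinase that docks on IL2RG, whose own difference was -0.11 (adjusted p = 0.642). The median of the list was -0.11 for time. For high fat it was -0.10, with 3 of 17 genes above 0.

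Of 34 genes listed as adaptors of TNF and interleukin-1 receptors and for NF-kB, 15 were measured and 14 tested. For time 5 rose (35.7%) and 2 fell (14.3%), against 15.8% and 19.1% of all probe sets. TRAF5 (0.75), TRAF6 (0.43), FADD (0.54), IRAK1 (0.26) and the NF-kB inhibitor NFKBIA (0.50) were higher at 9 months, while the kinase MAP3K7 (-0.37) and the caspase CASP8 (-0.51) were lower. The median of the 14 was 0.12 for time and -0.12 for high fat, where 4 of 14 were above 0. In the diet comparisons 0 of the 14 passed, with IRAK1 at -0.24, adjusted p = 0.554 for high fat, NFKBIA at -0.22, adjusted p = 0.800 for resveratrol added and TOLLIP at -0.18, adjusted p = 1.00 for resveratrol against control. Between the sexes at time 0 neither list had a called gene, and the smallest adjusted p was that of CASP8 (0.45, adjusted p = 0.05005).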

How the data were processed

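RNA of blood mononuclear cells was read on 22 Affymetrix porcine arrays. The deposited values are intensities on a linear scale, 1 per probe set and array, made by the authors with GCOS, RMA and Affymetrix Expression Console 1.1, per the submitters' processing notes. RMA brings the arrays to a common distribution, and scanner files were not used here. The log2 of each intensity was taken after a floor of 1 (the lowest deposited value was 4.03). The 124 control probe sets were set aside. Symbols came from the array's annotation. All 38 genes matched the pig gene table (assembly Sscrofa11.1, names only) by Entrez ID, with 0 symbols changed.

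Probe sets above log2 5 in at least 2 arrays (17240) were fitted with limma 3.58.1 (R 4.3.3) to condition and an additive sex term over all 22 arrays, or to 8 groups of condition and sex for the sexes at time 0. The moderated tests were two-sided, with Benjamini-Hochberg adjustment over all probe sets at a threshold of 0.05. Standard errors (SE) come from this fit, and the number of arrays limits the precision. No count of reads exists for arrays. The fit was tested on simulated data.

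The members and lists were chosen with earlier results of these data known. Named were, per comparison, the genes called and the 6 with the smallest p in each direction, and over all arrays the interferon receptors, the 12 genes of highest mean and the 5 of widest range over condition means. Of the signalling lists, called genes or else the smallest p were named. Genes of small difference given for their role (such as IL17B and CSF2) fall outside that rule. Alternatives were another normalization, other filters, array weights, 8 groups, 2 groups alone, the second probe set, blocks by pig (statmod 1.5.0) or by spike-in set, and leaving out each array. Pigs 8 and 25 pair the times by their labels. Between the times their deviations from the group means correlated by -0.056 and 0.199 across probe sets. With other time 0 pigs of the same sex this ran from -0.236 to 0.348 for pig 8 and from -0.356 to 0.198 for pig 25. The labelled pairs thus did not stand out clearly. Sequences of the genes were not used here.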

Additional observations from a re-analysis of the deposited data

Results flagged for a closer look

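In 3 of 124 combinations of gene and condition, 1 array stood far from the others by Dixon's test at its 95% level, where chance flags about 1 in 20. IFNAR2 was 8.61 in time 0 female 10, against 8.87 to 9.12 in the other 9 arrays. IL10RB was 7.32 in time 0 male 25, against 7.49 to 7.66. IL6R was 5.72 in control male 16 of 9 months, against 5.50 to 5.52.

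Resveratrol arrays of the females lay above, and those of the males below, the control arrays of their own sex in 6 of the 31 genes (19.4%), against 8.98% of all probe sets in that direction and 4.77% in the other (13.7% together). The differences were 0.27 in females and -0.59 in males for IL2RG, 0.28 in females and -0.36 in males for IL27RA, 0.30 in females and -0.39 in males for IL16, 0.36 in females and -0.23 in males for IL2RA, 0.28 in females and -0.11 in males for CSF3 and 0.37 in females and -0.093 in males for IL5. Each sex has 2 arrays per diet. IL5 was above log2 5 in 1 of these 8 arrays, resveratrol female 22 (5.09), so its other values cannot be told from background. A limma test of the female minus male difference, added after seeing the data, gave 0 of 31 calls, with adjusted p = 0.170 for IL27RA, 0.197 for IL2RG, 0.280 for IL16, 0.284 for CSF3, 0.324 for IL2RA and 0.387 for IL5. At an unadjusted p under 0.05 there were also 6 genes, where 16.8% of all probe sets reached that level, but not the same 6. They were IL27RA, IL2RG, IL16 and CSF3, without IL2RA and IL5, and with IFNAR2 (0.17 in females and -0.27 in males) and TNFRSF21, which ran the other way (-0.82 in females and 0.31 in males). The second probe set of IFNAR2 did not reach that level in the same limma test (p = 0.446). B cell markers (2 of 9 measured) were also higher in resveratrol females (9.81 to 9.95 against 9.14 to 9.48 in control females). In males they were lower (8.51 to 8.55 against 8.69 to 9.09). T cell markers did likewise (10.27 to 10.28 against 9.98 to 10.14 in females, 9.79 to 9.84 against 9.96 to 10.02 in males). Granulocyte markers (5 of 9 measured) ran the other way (5.11 to 5.42 against 5.72 to 5.90 in females, 6.38 to 6.47 against 5.81 to 6.02 in males). Monocyte markers were lower in resveratrol females (8.11 to 8.22 against 8.68 to 8.72) and overlapped in males (8.83 to 8.85 against 8.65 to 8.94). Markers of NK and cytotoxic cells (4 of 9 measured), also lymphocytes, did not follow those of T and B cells. They were higher with resveratrol in males (9.97 to 10.30 against 9.34 to 9.75) and, barely, in females (10.00 to 10.02 against 9.47 to 10.00). The part of these cell types was not tested. IL2RG is the common gamma chain of lymphocyte cytokine receptors.

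For resveratrol against high fat the sexes were opposite in 2 of 31 genes, both higher in females and lower in males (4.79% of all probe sets in that direction, 8.18% in both). IFNAR2 had 0.33 in females and -0.17 in males (adjusted p = 0.842 for the difference between the sexes), and IL5 had 0.30 in females and -0.22 in males (adjusted p = 0.842). The second probe set of IFNAR2 overlapped between the diets in males (8.48 and 8.82 with resveratrol, 8.66 and 8.72 on high fat). Its adjusted p for the difference between the sexes was 0.845. Here too resveratrol female 22 was the one array with IL5 above log2 5.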

How the results depend on the processing

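In the 3 diet comparisons and between the sexes 0 members passed under each alternative run, also where other probe sets did (68 over the whole array with array weights and 18 with 8 groups, for high fat). For time 8 to 11 members passed with 1 array left out, 9 with the second probe sets, 11 without the filter, 12 in the fit of the 2 groups alone, and 10 with the spike-in sets as a random block. With the pig number as a replicate block 10 passed, all among the 11, and it changed no other call. Array weights gave 11, of which 10 were among the 11, with IL4R lost (adjusted p = 0.052) and IL11RA called lower (-0.25, adjusted p = 0.0280). In the fit of the 2 groups IL1B (adjusted p = 0.0142) and IL6 (adjusted p = 0.0147) passed as well, although IL6 was under log2 5 in each array of both groups. Without the filter IL4 passed, a gene not tested otherwise. CSF2 (0.28, adjusted p = 0.0813) passed without time 0 male 12 (adjusted p = 0.0396). TNFSF13 did not pass with its second probe set, in the fit of the 2 groups, without the filter or with spike-in sets as a block. Nor did it pass without both set A arrays, an alternative added after seeing the data. The median of the members for resveratrol against control turned to 0.027 with array weights. Some small differences without a call turned sign. With the spike-in sets as a block IL6 for high fat was -0.025 and IL2RA for resveratrol added 0.057. With the second probe set TNFSF13 between the sexes was -0.093 and IFNAR2 0.024. With 1 array left out, IL6 ranged from -0.049 (without female 27) to 0.64 for high fat, and from -0.13 (without female 21) to 0.82 for resveratrol against control. The causes were not tested. With 4 arrays per diet and members near log2 5, small changes are not detectable.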

Other observations

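Of the 7 genes read by several probe sets, 4 had a second one that was tested. Over the 22 arrays the probe sets of IL1B correlated by r = 0.997, those of IL4R by 0.784, those of IFNAR2 by 0.583 and those of TNFSF13 by 0.185. IL1R1, TNFRSF12A and IL17B had further probe sets below log2 5, with means of 4.07 for IL1R1, 4.34 for TNFRSF12A, and 4.51 and 3.83 for IL17B, where the probe sets described above had means of 6.04, 7.02 and 6.21. IL4 read 5.63 in the control female 8 of 9 months and at most 4.78 in the other 21 arrays. The same array had the lowest platelet marker mean of the series (6.26).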
